A study of Mus musculus with 6 samples.

Results

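Fatty acid oxidation and the genes driven by the nuclear receptor PPAR alpha were followed on one-colour Agilent arrays of kidney cortex RNA from male mice. The set held 52 genes, chosen by name from mitochondrial and peroxisomal oxidation, ketone enzymes and known PPAR alpha targets. All 52 were among the 20464 genes with a tested probe. The arrays carried 89 probes for them, of which 3 were left out for an outlier flag, 4 were too dim to be tested and 82 were tested. Each gene was read from its brightest tested probe, and the brightest probe of every member was well above background on all 6 arrays.

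The labels give 3 arrays the genotype db/m and 3 the genotype db/db, with 1 array per sample and mice of 16 weeks throughout. Db/db mice carry the leptin receptor mutation Lepr db on both chromosomes, on the C57BLKS/J strain, and become obese and diabetic. Db/m mice are their usual lean controls. The study's text speaks of db/db mice given Huangqi decoction (HQD), a herbal extract, against untreated db/db mice, and a treatment of 8 weeks is written with the labels of all 6 samples. Mice of the study were fasted overnight before the tissue was taken. The genotype label of the first group is db/m, so the 2 accounts of that group differ and the dose of HQD for these arrays was not given in the sources used here. The groups are called by their labels below, and a difference is always the labelled db/m mean less the labelled db/db mean on the log2 scale, given ± its standard error (SE) with 3 arrays per group. Levels are log2 intensities relative to the 75th percentile of the array.

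Long-chain fatty acids are first activated to acyl-CoA by synthetases and carried into mitochondria by the carnitine shuttle. There, each round of beta oxidation runs through a dehydrogenase, a hydratase, a second dehydrogenase and a thiolase. Peroxisomes run a parallel pathway for very long and branched chains, and Cyp4a enzymes of the endoplasmic reticulum oxidise the far (omega) end of the chain. PPAR alpha binds with RXR to direct repeats of the letters AGGTCA and switches on many genes of these branches during fasting. The proximal tubule of the renal cortex takes most of its energy from fatty acids.

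The stretches upstream of 4 gene starts are shown because PPAR alpha targets are described as carrying such a repeat. They come from RefSeq on GRCm38.p6, and capitals mark AGGTCA on either strand. The Acadm stretch is chr3:153944644-153944893 on the minus strand, the Cpt1a stretch is chr19:3323051-3323300 on the plus strand and the Echs1 stretch is chr7:140116422-140116671 on the minus strand. Hadha and Hadhb, which encode both subunits of the trifunctional protein, start back to back 273 bases apart, and the stretch between them that both windows cover is chr5:30155003-30155230, given on the plus strand.
Acadm: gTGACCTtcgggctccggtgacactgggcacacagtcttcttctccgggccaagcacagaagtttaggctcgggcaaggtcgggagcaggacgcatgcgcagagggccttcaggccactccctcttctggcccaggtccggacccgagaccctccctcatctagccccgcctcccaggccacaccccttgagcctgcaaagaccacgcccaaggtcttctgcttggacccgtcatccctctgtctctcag
Cpt1a: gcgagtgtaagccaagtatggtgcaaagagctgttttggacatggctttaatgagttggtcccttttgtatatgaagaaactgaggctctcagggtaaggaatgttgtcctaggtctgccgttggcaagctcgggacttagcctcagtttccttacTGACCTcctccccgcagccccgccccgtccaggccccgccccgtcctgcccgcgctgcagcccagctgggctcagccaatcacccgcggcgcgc
Echs1: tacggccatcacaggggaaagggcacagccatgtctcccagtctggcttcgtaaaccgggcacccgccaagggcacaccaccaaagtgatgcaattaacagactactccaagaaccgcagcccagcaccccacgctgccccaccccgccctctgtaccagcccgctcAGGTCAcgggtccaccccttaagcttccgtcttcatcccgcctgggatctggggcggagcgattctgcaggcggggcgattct
Hadha and Hadhb: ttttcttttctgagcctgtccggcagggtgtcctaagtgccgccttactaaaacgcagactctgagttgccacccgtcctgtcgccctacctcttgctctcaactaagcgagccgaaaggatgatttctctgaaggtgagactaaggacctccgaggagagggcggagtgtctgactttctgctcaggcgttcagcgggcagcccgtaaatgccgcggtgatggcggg

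A window from 250 bases before to 50 bases after the gene start was at hand for 43 of the 52 members and was searched on both strands. The half-site AGGTCA lay in the windows of 7 of the 43, namely Cpt1a, Acadm, Acadvl, Echs1, Acsm1, Acot4 and Cd36. That is 16.3% of them, against 18.1% of all 27025 genes with a window. The full repeat AGGTCANAGGTCA, where N is any base, was in 0 of the 43 and in 0.0481% of all genes, and the looser form AGGNCANAGGNCA was in 0 of the 43 and in 0.451% of all genes. The half-site in capitals began 94 bases before the start of Cpt1a and 83 bases before that of Echs1, and both genes had lower levels in labelled db/m below. It began 249 bases before the start of Acadm, whose level did not pass the test. Of the other holders, Acadvl, Acsm1, Acot4 and Cd36 did not pass at their brightest probe either. Hadha, Acad10, Acaa1b and Acsm5 were lower with no half-site in their windows. The shared stretch of Hadha and Hadhb held none. These matches describe letters in a short window and no binding was measured.

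Most members were somewhat lower in the arrays labelled db/m. Of the 52 genes, 43 had a negative difference and the median was -0.20, against -0.02 over all 20464 genes. Under quantile normalization and in the deposited log2 values 31 of the 52 were negative, and under median centring 48. At an unadjusted limma p under 0.05, 11 members (21.2%) were lower, against 9.18% of all genes, and 1 member (1.92%) was higher, against 6.69%. For 15 of the 52 members all arrays of labelled db/m lay below those of labelled db/db, and for 0 they lay above. Over all 20464 genes these counts were 3068 (15.0%) and 1490 (7.28%), so the members' share below was larger than that of all genes. No member reached a fold of 2 in either direction with that p, a screen that 1.06% of all genes passed. After Benjamini-Hochberg adjustment over all tested probes, limma called 0 members, as did an ordinary t-test with pooled variance. The 12 named by the unadjusted limma p had adjusted p from 0.240 to 0.277. In what follows, a gene that passed the test had an unadjusted limma p under 0.05.

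The members are strongly expressed genes, and strong signals were lower in labelled db/m across the arrays. Of the 52, 43 had their probe in the brightest quartile of tested probes. Over all 6483 genes of that quartile the median difference was -0.13, 75.7% were negative and 13.6% were lower at an unadjusted p under 0.05. The members' median of -0.20 and their 21.2% lay beyond these values by less than they lay beyond the values of all genes. Of the 6483, 1593 had all arrays of labelled db/m below those of labelled db/db and 218 above. For the 52 members these counts were 15 and 0, a share below that was only somewhat larger than that of the 6483. Under quantile normalization, which gives every array the same distribution, the members' median was -0.06 with 6 lower and 2 higher (6 and 3 in the deposited log2 values), and the bright genes' median was -0.00465 with 5.66% lower. The 6 that stayed lower were Cpt1a, Acad10, Hadha, Acaa1b, Acsm5 and Vnn1. The count of 11 fell to 4 with replicate 3 of labelled db/m left out. Leaving out labelled db/db replicate 2 gave 6, and leaving out replicate 1 of that group gave 7. The share of all tested probes that were lower fell as well, from 10.8% to 4.06%, 5.14% and 5.55% in the same order. Cpt1a, Acaa1b, Acsm5 and Vnn1 passed with any 1 array left out. Hadha was lost without labelled db/m replicate 3, and the other 6 were lost without that array and without at least 1 more.

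**Figure D1:**
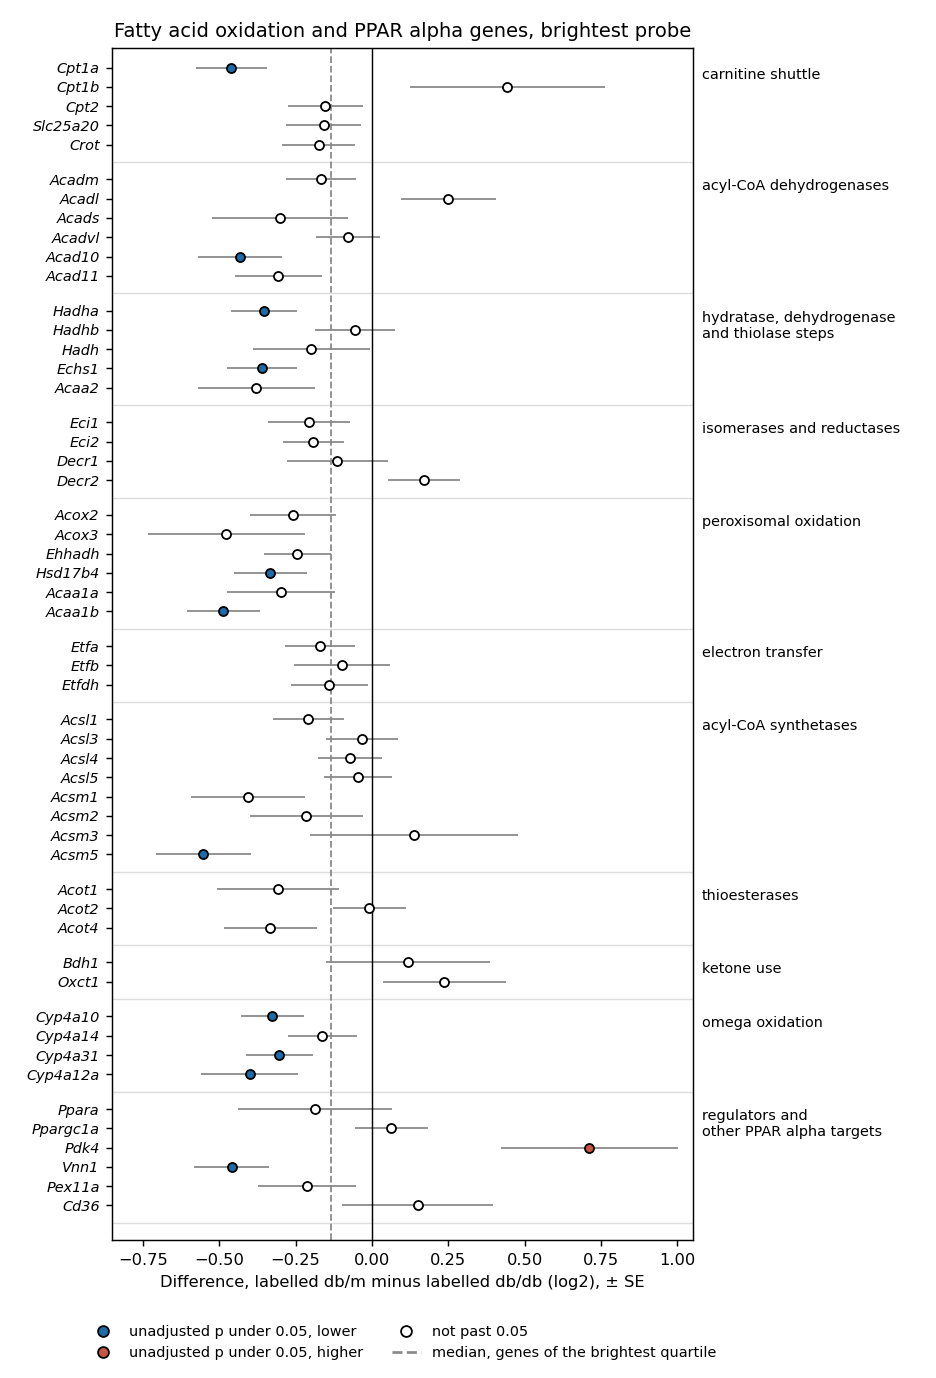
Difference of each of the 52 members by branch, with the log2 difference of labelled db/m minus labelled db/db on the x axis and bars of 1 SE. Filled points passed an unadjusted limma p of 0.05 (11 lower, 1 higher), and the dashed line is the median of -0.13 over the genes of the brightest quartile.

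In the carnitine shuttle, the entry step Cpt1a was lower, while Cpt2, Slc25a20 and Crot lay near the shift of all bright genes. Cpt1a, the outer membrane transferase that sets the rate of entry, had levels of 5.38, 5.55 and 5.40 in labelled db/m and 5.93, 6.02 and 5.77 in labelled db/db. The groups did not overlap, and the difference was -0.46 ± 0.12, so that labelled db/db was 1.38-fold higher (adjusted p = 0.240). Cpt2, the inner membrane transferase, differed by -0.15 ± 0.12 (adjusted p = 0.503) at its brightest probe. The carrier Slc25a20 and the peroxisomal transferase Crot gave -0.16 and -0.17, neither past the test. Cpt1b, the muscle form, stood at +0.44 ± 0.32 with overlapping groups (adjusted p = 0.458), from levels of 1.24, -0.04 and 0.82 against 0.46, 0.12 and 0.12. Its highest value was that of labelled db/m replicate 1.

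Among the acyl-CoA dehydrogenases, which open each round of oxidation, 1 of 6 passed the test as lower (16.7%, against 13.6% of the genes of the brightest quartile). Acad10, a member of the family with an added kinase-like region, had 2.74, 3.12 and 2.79 in labelled db/m and 3.28, 3.42 and 3.24 in labelled db/db, with no overlap. Its difference was -0.43 ± 0.14 (adjusted p = 0.240). The enzymes for medium and very long chains did not pass, with -0.17 ± 0.11 for Acadm (adjusted p = 0.439) and -0.08 ± 0.11 for Acadvl (adjusted p = 0.684). Both of these turned positive under quantile normalization, to 0.02 and 0.14. Acadl, the long-chain form, was the 1 dehydrogenase with a positive difference at this scaling, 0.25 ± 0.15 (adjusted p = 0.401). Its levels were 4.05, 3.89 and 3.93 in labelled db/m and 3.51, 3.60 and 4.01 in labelled db/db, where replicate 3 overlapped the other group. Without that array the difference was 0.40 and passed the test. Acads and Acad11 had -0.30 and -0.31 without passing.

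The hydratase, dehydrogenase and thiolase steps in the mitochondrial matrix all had negative differences, with a median of -0.35 over 5 genes. Of the genes of the brightest quartile 75.7% were negative, and 13.6% were lower past the test, against 40% of the 5. Under quantile normalization and in the deposited log2 values 4 of the 5 were negative and the median was -0.17. Hadha, the alpha subunit of the trifunctional protein, had 1.10, 1.27 and 1.06 against 1.53, 1.49 and 1.47. The groups did not overlap, and the difference was -0.35 ± 0.11 (adjusted p = 0.240). Echs1, the short-chain hydratase, had 5.27, 5.43 and 5.20 against 5.71, 5.72 and 5.55, a difference of -0.36 ± 0.12 (adjusted p = 0.240). Hadhb, the partner that shares its start region with Hadha, differed by -0.06 ± 0.13 (adjusted p = 0.826), and the difference between these partners was not tested. Hadh and the thiolase Acaa2 gave -0.20 and -0.38 without passing, and in both the lowest array was labelled db/m replicate 1. The isomerases and reductases that prepare unsaturated chains held 0 of 4 genes past the test, from -0.21 (Eci1) to 0.17 (Decr2). Decr2, a peroxisomal reductase, passed as higher under quantile normalization and in the deposited log2 values. The 3 electron transfer genes, Etfa, Etfb and Etfdh, lay between -0.17 and -0.10 and turned positive under quantile normalization.

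In peroxisomal oxidation 6 of 6 genes were negative, against 75.7% of the genes of the brightest quartile. The 2 that passed were 33.3%, against 13.6% of that quartile. All 6 stayed negative under each scaling tried (75th percentile, quantile and median) and in the deposited log2 values. The median was -0.32. Acaa1b, a peroxisomal thiolase, had 4.57, 4.75 and 4.46 in labelled db/m and 5.17, 5.05 and 5.01 in labelled db/db. It differed by -0.49 ± 0.12, or 1.40-fold higher in labelled db/db (adjusted p = 0.240). Hsd17b4, the D-bifunctional protein, had 5.32, 5.58 and 5.33 against 5.70, 5.82 and 5.70, a difference of -0.33 ± 0.12 (adjusted p = 0.251). Neither gene's groups overlapped. Ehhadh, the L-bifunctional protein and a classical PPAR alpha target, had -0.24 ± 0.11 (adjusted p = 0.296) with groups that did not overlap. The oxidases Acox2 and Acox3 and the thiolase Acaa1a had -0.26, -0.48 and -0.30, none past the test. Acaa1a and Acaa1b are close copies, and how far their probes share signal was not tested.

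Omega oxidation had 3 of 4 genes lower at their brightest probe (75%, against 9.18% of all genes and 13.6% of the genes of the brightest quartile). Cyp4a10 had 5.09, 5.18 and 5.11 in labelled db/m and 5.54, 5.38 and 5.44 in labelled db/db, a difference of -0.33 ± 0.10 (adjusted p = 0.240). Cyp4a31 had 6.74, 6.91 and 6.78 against 7.18, 7.14 and 7.02, or -0.30 ± 0.11 (adjusted p = 0.253). Cyp4a12a, the form that makes the vasoactive lipid 20-HETE, had 3.42, 3.16 and 3.46 against 3.59, 4.02 and 3.63, or -0.40 ± 0.16 (adjusted p = 0.271). None of the 3 pairs of groups overlapped, which in this direction held for 15.0% of all genes and for 1593 of the 6483 genes of the brightest quartile. Cyp4a14 showed a smaller difference of -0.16 ± 0.11 with overlapping groups (adjusted p = 0.442). Under quantile normalization the 4 differences stayed negative, and Cyp4a10, Cyp4a31 and Cyp4a12a no longer passed.

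The 4 Cyp4a genes lie beside each other on chromosome 4, and the probes that read them are the means of telling them apart. All 3 Cyp4a10 probes were lower with no overlap of the groups, at -0.33, -0.51 and -0.42 (adjusted p = 0.240 for each). Those with -0.51 and -0.42 are shown with the Cyp4a14 probe, in the letters of the array's design. On mm9 the first Cyp4a10 probe spans chr4:115197445-115197926, which is longer than its 60 bases, the second lies at chr4:115198463-115198522 and the Cyp4a14 probe at chr4:115168609-115168668 on the minus strand.
Cyp4a10 first: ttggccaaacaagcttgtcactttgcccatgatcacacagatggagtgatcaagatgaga
Cyp4a10 second: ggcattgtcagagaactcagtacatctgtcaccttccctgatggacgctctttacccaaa
Cyp4a14: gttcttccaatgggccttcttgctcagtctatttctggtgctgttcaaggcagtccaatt
Both Cyp4a31 probes were lower as well, at -0.30 and -0.40. The 4 genes lie from 13.5 to 13.8 Mb from the probes of Lepr, the gene whose allele names the 2 genotypes, and Cpt2 lies 6.12 Mb from them. How far the Cyp4a probes share signal was not tested.

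**Figure D2:**
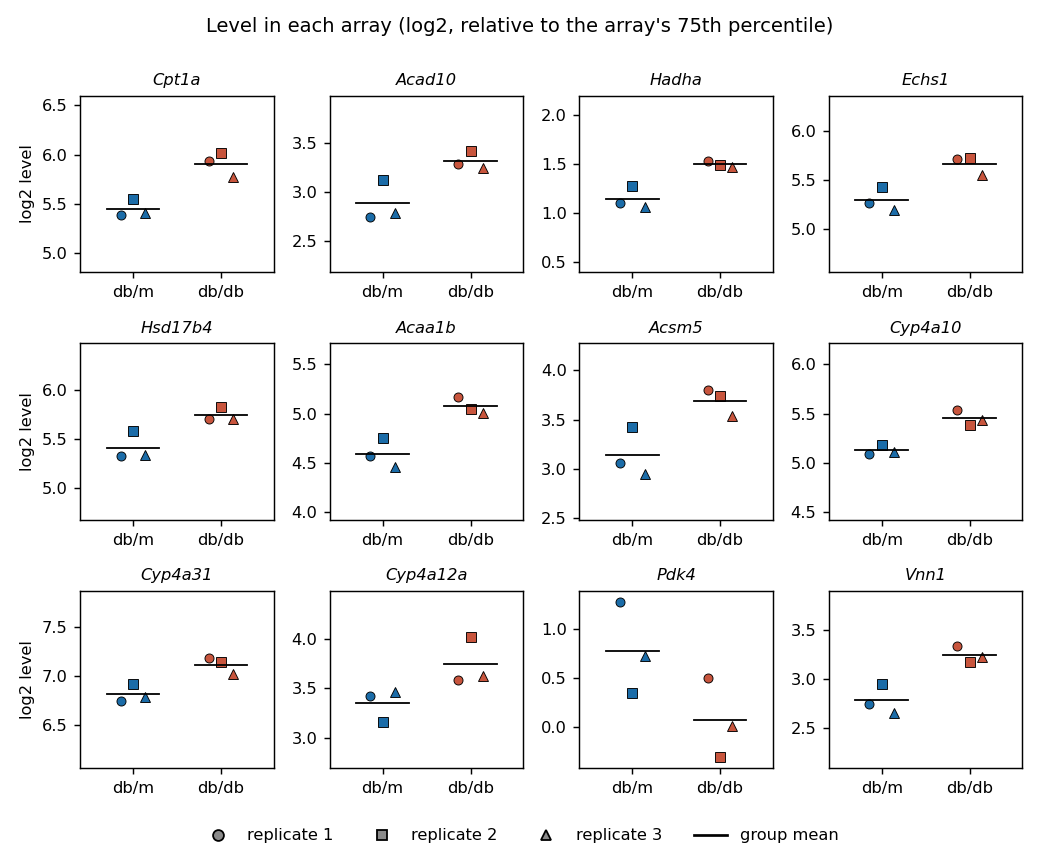
Log2 level, relative to the array's 75th percentile, of the 12 members with an unadjusted limma p under 0.05 in each of the 6 arrays. Symbols mark the replicate numbers and lines the group means, and each panel spans the same range. The groups do not overlap in 11 panels and overlap in that of Pdk4.

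Of the 8 acyl-CoA synthetases, Acsm5 had the largest drop of all 52 members at the brightest probe. This medium-chain enzyme had 3.06, 3.42 and 2.95 in labelled db/m and 3.80, 3.74 and 3.54 in labelled db/db, with no overlap. The difference was -0.55 ± 0.16, or 1.47-fold higher in labelled db/db (adjusted p = 0.240). Its other probe gave -0.32 (adjusted p = 0.403). The other medium-chain enzymes Acsm1, Acsm2 and Acsm3 had -0.41, -0.22 and 0.14, and the long-chain enzymes Acsl1, Acsl3, Acsl4 and Acsl5 lay between -0.21 and -0.03, none past the test. The groups of Acsl1 did not overlap. The thioesterases, which release free acids from acyl-CoA, held 0 of 3 genes past the test. Acot1, a PPAR alpha target, had 5.60, 5.03 and 4.99 against 5.74, 5.46 and 5.34, a difference of -0.31 ± 0.20 (adjusted p = 0.417). It passed as lower, at -0.50, both under median centring and without replicate 1 of labelled db/m. Acot2 and Acot4 had -0.01 and -0.33. The Acsm and the Acot genes are families of close copies, whose shared signal was not tested.

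The ketone genes had a positive median, 0.18, and neither passed the test. Under quantile normalization the isomerases and reductases (0.07), the electron transfer genes (0.05) and the regulators (0.06) had positive medians too. Oxct1, the enzyme that commits ketone bodies to use as fuel, had 6.79, 7.23 and 6.92 in labelled db/m and 6.36, 6.96 and 6.91 in labelled db/db, or 0.24 ± 0.20 (adjusted p = 0.523). In the deposited log2 values its difference was 0.47 and passed as higher. Bdh1, which interconverts the ketone bodies, had 4.15, 3.15 and 3.20 against 3.44, 3.35 and 3.36, or 0.12 ± 0.27 (adjusted p = 0.823). Replicate 1 of labelled db/m stood above all others, and without it the difference was -0.21. Under median centring Bdh1 was at -0.07 and the branch median at -0.01.

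Among the regulators and other PPAR alpha targets, 1 of 6 was lower, 1 was higher and 4 did not pass. The 16.7% each way stand against 9.18% lower and 6.69% higher of all genes. Vnn1, a pantetheinase and a sensitive PPAR alpha target, had 2.75, 2.95 and 2.65 in labelled db/m and 3.34, 3.17 and 3.22 in labelled db/db, with no overlap and a difference of -0.46 ± 0.12 (adjusted p = 0.240). Pdk4, the kinase that shuts pyruvate out of oxidation and another PPAR alpha target, was the 1 member that was higher. It had 1.27, 0.35 and 0.72 against 0.50, -0.30 and 0.01, so that the groups overlapped, with 0.71 ± 0.29 (adjusted p = 0.277), the largest rise of the 52. It no longer passed under median centring, without labelled db/m replicate 1 or 3, or without labelled db/db replicate 2 or 3, where the difference lay between 0.47 and 0.74. Ppara itself had 3.69, 4.73 and 4.29 against 4.39, 4.52 and 4.36, or -0.19 ± 0.25 (adjusted p = 0.691). Its low value was replicate 1 of labelled db/m, without which the difference was 0.09. The coactivator Ppargc1a stood at 0.06 ± 0.12 (adjusted p = 0.782), the peroxisome division gene Pex11a at -0.21 and the fatty acid transporter Cd36 at 0.15 ± 0.25 (adjusted p = 0.747).

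Where a member had several probes, the one nearer the 5′ end of the transcript mostly showed the larger drop. Of 23 members with several tested probes, 8 had a second probe that passed as lower where the brightest did not. They were Cpt2 at -0.51 (adjusted p = 0.240), Acad11 at -0.46, Acox2 at -0.54, Acaa1a at -0.50, Etfa at -0.43, Acsl1 at -0.38, Acsl3 at -0.56 and Acot4 at -0.48. Echs1 and Acsm5 had a second probe that did not pass, and 6 members (Crot, Hadhb, Etfdh, Acsl4, Acsl5 and Ppargc1a) had one of the other sign, none past the test. Over all 82 tested member probes 22 were lower, or 26.8%, against 10.8% of all tested probes and 15.1% of those in the brightest quartile. Several member probes read the same gene, so they are not separate genes. For 16 members with probes at several places on 1 RefSeq transcript, the 5′ probe was more negative than the 3′ probe in 13, by a median of -0.18. Over all 4084 such genes it was more negative in 63.5%, by a median of -0.07. The 5′ probes were the dimmer ones in 15 of the 16 members and in 3537 of all 4084 genes. RNA was accepted at an integrity number of 7 or higher, and the part of RNA quality or labelling length in this pattern was not tested.

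**Figure D3:**
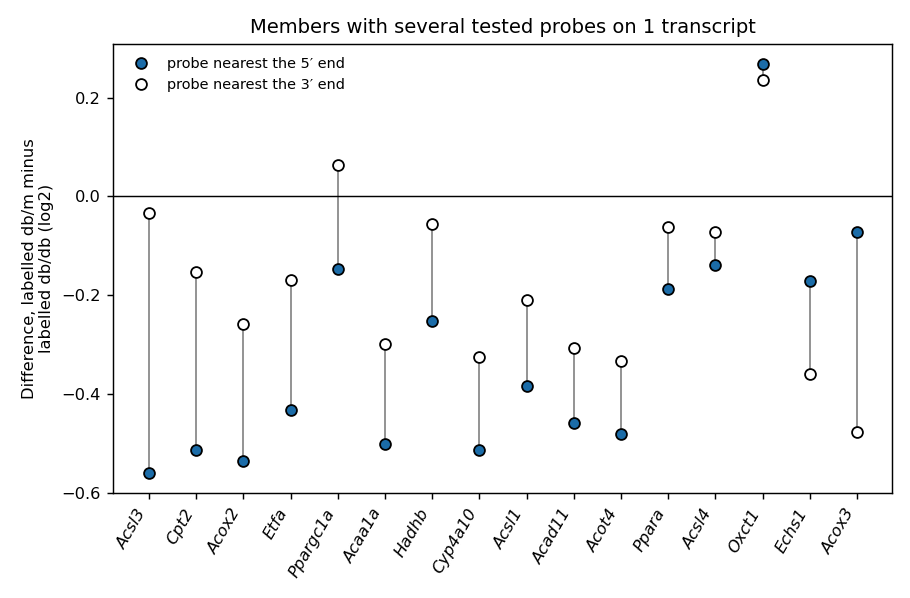
Log2 difference of labelled db/m minus labelled db/db at the probe nearest the 5′ end (filled) and nearest the 3′ end (open) of the 16 members with several tested probes on 1 transcript. The filled point is the lower one in 13 of the 16.

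From array to array, the members' median stood close to that of all bright probes. The median deviation of the 52 members from their own means was -0.15, 0.01 and -0.15 in labelled db/m and 0.05, 0.18 and 0.06 in labelled db/db. Replicate 2 of labelled db/m was the array nearest to the other group. Over all probes of the brightest quartile the values were -0.10, 0.01 and -0.12 against 0.04, 0.15 and 0.02. Of 20 proximal tubule markers, all tested, 18 were negative (90%, against 75.7% of the genes of the brightest quartile), with a median of -0.31. The 2 that passed as lower were 10%, against 9.18% of all genes and 13.6% of the genes of that quartile. The markers' median deviations were -0.48, 0.22 and -0.15 in labelled db/m and 0.05, 0.24 and 0.13 in labelled db/db, so that replicate 2 of labelled db/m lay above 2 of the labelled db/db arrays. Their summed level ranged from 2194 to 3372 times the array's 75th percentile in labelled db/m and from 3057 to 3417 in labelled db/db. In whole cortex, fewer tubule cells and less RNA per cell cannot be told apart, and the part of either in the members' shift was not tested.

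**Figure D4:**
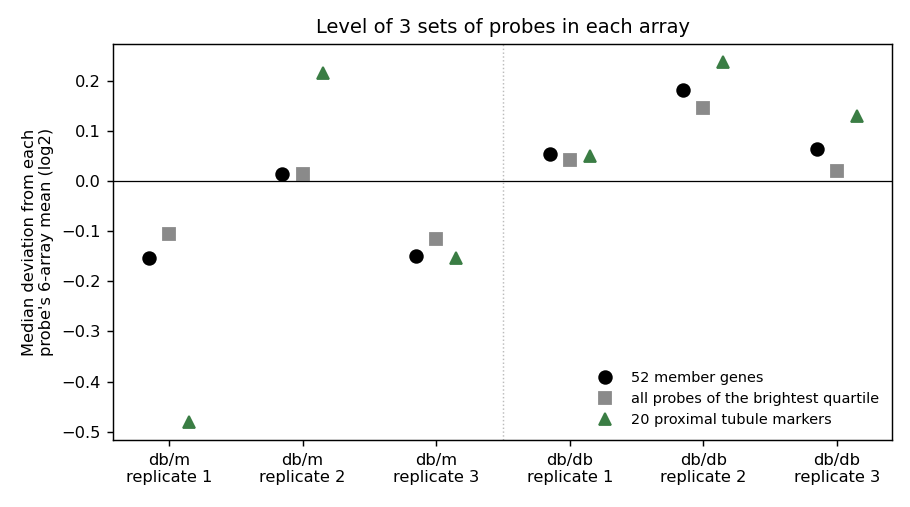
Median deviation from each probe's 6-array mean (log2, y axis) of the 52 members, of all probes of the brightest quartile and of 20 proximal tubule markers, in each array. The members sit from -0.15 to 0.01 in labelled db/m and from 0.05 to 0.18 in labelled db/db.

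Of 12 markers of the thick limb, distal tubule and collecting duct, 2 were lower (16.7%, against 9.18% of all genes). Among 6 podocyte genes and 3 blood genes tested, 0 were lower. In that order, summed levels were 351.7 to 514 against 410.9 to 433, 13.3 to 31.8 against 18.1 to 27.5, and 424 to 464 against 422 to 578. Of 7 immune genes tested 2 were higher (28.6%, against 6.69% of all genes), with summed levels from 10.1 to 11.0 against 7.15 to 9.78. Fat, a tissue rich in Cd36, gave little signal: Adipoq, Plin1, Cfd and Ucp1 were not well above background on all 3 arrays of either group and the 3 fat genes tested summed to between 0.849 and 1.02 against 0.697 and 1.03.

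The arrays lay on 3 slides, of which 1 carried both groups (replicate 1 of labelled db/m with replicate 3 of labelled db/db). On that slide alone, with no test, the 11 lower members differed by between -0.50 (Acad10) and -0.21 (Cyp4a12a). Their direction there was fixed beforehand, since the groups of the 11 do not overlap. Pdk4 differed by 1.26, Bdh1 by 0.79 and Ppara by -0.67 there, while Acot1 and Oxct1 turned to 0.26 and -0.12. With slide as a block, which leaves the difference to that slide, limma called Acaa2 as lower and Bdh1 and Pdk4 as higher at an unadjusted p under 0.05, and none of the 11.

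A further 53 genes of fatty acid handling that are not among the 52 were read in the same way, and 52 of them were tested. Of these, 43 were negative (82.7%, against 75.7% of the genes of the brightest quartile), with a median of -0.21. At an unadjusted limma p under 0.05, 7 were lower (13.5%, against 9.18% of all genes and 13.6% of the genes of that quartile) and 0 were higher. The largest was Hacl1, the lyase of peroxisomal alpha oxidation, with 4.38, 4.67 and 4.35 in labelled db/m and 4.99, 5.19 and 5.10 in labelled db/db. It differed by -0.63 ± 0.13, or 1.55-fold higher in labelled db/db (adjusted p = 0.240). Acot12, a thioesterase, had -0.44 ± 0.12 (adjusted p = 0.240) and Pex19, a peroxisome assembly factor, -0.42 ± 0.12 (adjusted p = 0.240). Acat1, which splits acetoacetyl-CoA, had -0.26, Pccb, a subunit of propionyl-CoA carboxylase, -0.33, and Tfam, the mitochondrial transcription factor, -0.31. The groups of the 7 did not overlap. Of the 52 tested, 14 had all arrays of labelled db/m below those of labelled db/db and 0 above. Below, this held for 15.0% of all genes and for 1593 of the 6483 genes of the brightest quartile. With replicate 3 of labelled db/m left out 3 were lower, with its replicate 2 left out 16 were lower and 1 was higher, and without labelled db/db replicate 2 the count of lower genes was 4. Under quantile normalization 4 were lower and under median centring 17. In these 5 settings 4.06%, 13.7%, 5.14%, 10.5% and 19.3% of all tested probes were lower, against 10.8% in the main fit.

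**Figure D5:**
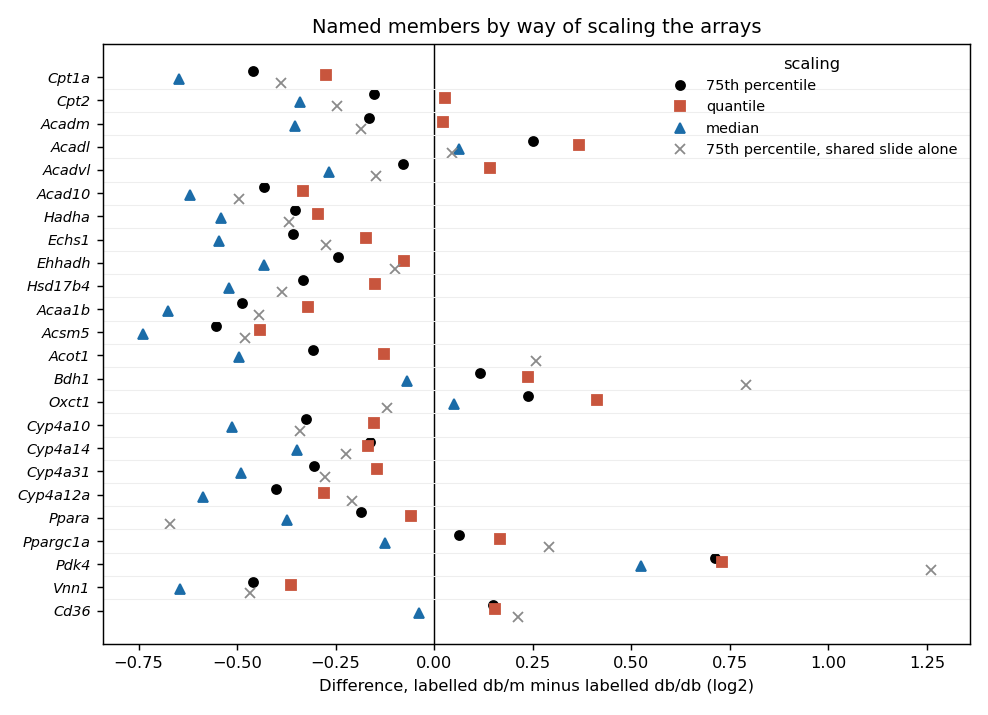
Log2 difference of labelled db/m minus labelled db/db for the 24 named members with arrays scaled to the 75th percentile, by quantile or by the median, and on the 1 slide that both groups share. Quantile points lie to the right of median points for all 24, and the 11 members called lower stay left of 0 in each. On the shared slide those 11 could not do otherwise, since their groups do not overlap.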

How the data were processed

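For each array the authors deposited the scanner output, with a background-subtracted intensity per spot, made per the labels with Agilent Feature Extraction 10.7.1.1 and not normalized between arrays. The authors also deposited a table of log2 values, which have the same distribution in every array. Gene names and mm9 coordinates came from the scanner files, with the names of the labelled db/db arrays, since 71 names differed in the file of labelled db/m replicate 1. In R 4.3.3, control spots and outlier-flagged spots were left out, spots of a probe were averaged, and each array's log2 intensities were taken relative to its own 75th percentile. Of 56605 probes, 135 were left out for outlier flags, 0 were saturated and 29889 were tested, being well above background in every array of either group. From 51.6% to 59.0% of probes were well above background on an array, and the number of arrays limits the precision. Groups were compared with limma 3.58.1 (lmFit and eBayes) over all tested probes, with Benjamini-Hochberg adjustment over all of them; the fit was tested on simulated data. An exact permutation test of 3 against 3 cannot go below 0.1 and was not used. The study's methods give 3 mice per group, so p-values rest on the spread between arrays of different mice, moderated by eBayes over all tested probes. Replicates 2 and 3 of labelled db/m shared 1 slide and scan, and replicates 1 and 2 of labelled db/db another. For these arrays group and slide cannot be told apart.

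Members described with levels, errors and p were those with an unadjusted p under 0.05, a fixed set of well-known enzymes and regulators, and the largest difference in each direction; other members are named with fewer values and were chosen after their values were seen. Of the other fatty acid genes, those with an unadjusted p under 0.05 were named, except 1 that is counted but not reported here. The members, the other fatty acid genes and the marker lists were chosen with earlier results of these data known. Promoter windows came from RefSeq on GRCm38.p6, and 9 members had no window here. Alternatives covered scaling, background correction, the filter on dim probes, the test, slide, replicate number, the choice of probe and each array left out. The choice of the probe nearest the 5′ end was added after seeing the data.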

Additional observations from a re-analysis of the deposited data

How the results depend on the processing

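The 11 lower members and Pdk4 kept their direction in the 13 alternatives that could change the size of a difference for at least some genes. These were scaling, background correction, deposited values, choice of probe, the shared slide and each array left out. For the 11, the groups did not overlap, so the shared slide or an array left out could not turn the sign. Cpt1a, Acad10, Hadha, Hsd17b4, Acaa1b, Cyp4a12a, Pdk4 and Vnn1 had 1 tested probe each. For them the mean of all probes and the probe nearest the 5′ end returned the same difference, so passing there adds nothing to the counts that follow. Of 18 tested alternatives, Cpt1a, Acaa1b, Acsm5 and Vnn1 passed the test in 17, Hadha in 16, Acad10 in 14, Cyp4a10 in 13, Pdk4 in 11, Echs1, Hsd17b4 and Cyp4a31 in 10 and Cyp4a12a in 8. Counts of lower members were 6 under quantile normalization and in the deposited log2 values, 20 under median centring and 1 with slide as a block. In these settings 10.5%, 10.5%, 19.3% and 5.16% of all tested probes were lower, against 10.8% in the main fit. Under median centring 26.6% of the genes of the brightest quartile were lower, against 38.5% of the members. The count was 17 with the mean of all probes of a gene, where 9.55% of all genes were lower. It was 18 with the probe nearest the 5′ end, a choice not made for all genes. Counts of higher members were 2, 3, 0 under quantile normalization, the deposited values and median centring, and 2 with slide as a block. They were 0 with no filter on dim probes and by the ordinary t-test, which called 12 members and 11.2% of all tested probes lower. The median over members was -0.0585 under quantile normalization, -0.0595 in the deposited values and -0.38 under median centring, which moved the median of all probes from -0.03 to -0.21. With 1 array left out, lower members ranged from 4 to 16, while from 4.06% to 13.7% of all tested probes were lower. Higher members ranged from 0 to 2 and the median from -0.24 to -0.14. The other fatty acid genes past the test in either direction ranged from 3 to 17, with 4 under quantile normalization and 17 under median centring.

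Same-numbered samples correlated in their deviations by 0.353, 0.148 and 0.0461, so the numbers were not taken as pairs. The fit with a replicate block called 16 members lower and 1 higher, and 13.6% of all tested probes lower. Among uncalled members, quantile normalization turned Cpt2 to 0.0287, Acadm to 0.0235 and Acadvl to 0.14, and the deposited values gave 0.0285, 0.0221 and 0.14. Median centring turned Bdh1 to -0.0697, Ppargc1a to -0.12 and Cd36 to -0.0373. Slide as a block, like the shared slide alone, turned Acot1 to 0.26 and Oxct1 to -0.12. Ppargc1a was -0.0417 over all its probes and -0.15 at the probe nearest the 5′ end. With 1 array left out, Bdh1 ranged from -0.21 to 0.29, Ppara from -0.43 to 0.0866, Ppargc1a from -0.0275 to 0.13 and Cd36 from -0.0103 to 0.42. The causes were not tested.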
